A study of Homo sapiens with 24 samples.

Results

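The 40 genes described here carry the response of the cell to stress in the endoplasmic reticulum (ER) and the integrated stress response. They were picked by gene symbol for what they are known to do, but with earlier results of these data known. Shares of members set beside those of all genes therefore describe the data and are not a test. The 40 come from 60675 genes counted in 24 RNA-seq libraries, and all passed the filter on low counts in every fit. The ATF4 arm had 16 members (8 transcription factors and feedback genes, 6 enzymes of amino acid and one-carbon metabolism, and 2 secreted or surface proteins), the ER arm had 18 (11 chaperones and co-chaperones, 3 disulfide isomerases and 4 genes of ER-associated degradation), and the remaining 6 were ER stress sensors and related transcription factors. The study asked how depletion of METTL3, the catalytic subunit of the complex that writes N6-methyladenosine on RNA, altered gene expression in human prostate cancer cells with and without androgen. LNCaP:C4-2 (written LNCaP:C42 in the labels) is a castration-resistant derivative of the LNCaP line that expresses the androgen receptor, and 22Rv1 is a castration-resistant line that also expresses receptor splice variants. Both were kept in steroid-depleted medium and transfected with pooled siRNAs, either directed at METTL3 (siMETTL3) or non-targeting (siSCR), so that controls were transfected cells too, and transfection was repeated after 48 h. At that point R1881, a synthetic androgen, was added at 1 nM, or its ethanol vehicle, for 72 h. This gave 8 groups of 3 libraries: siSCR or siMETTL3, with vehicle or R1881, in each of the lines. Nothing in the labels says that replicates were separate cultures, so p-values measure the spread between these libraries, which may be technical, and each line stands for itself only.

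In the unfolded protein response, sensors in the ER membrane encoded by ERN1 (IRE1), EIF2AK3 (PERK) and ATF6, react to unfolded protein in the ER lumen. IRE1 splices the mRNA of the transcription factor XBP1, and the cleaved form of ATF6 enters the nucleus; both act on genes of ER chaperones and of ER-associated degradation, the route by which misfolded protein is returned to the cytosol and destroyed. PERK phosphorylates the translation factor eIF2, as do the other kinases of the integrated stress response, which react to amino acid shortage, double-stranded RNA or lack of haem; bulk translation drops while ATF4 is made, and ATF4 acts with C/EBP partners on genes of amino acid supply and, through DDIT3 (CHOP), TRIB3 and PPP1R15A, on cell fate and feedback. Prostate luminal cells are secretory, and androgen is known to drive secretory and ER genes in them.

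Short DNA elements known from these pathways were searched in the promoters, and the windows of HSPA5, CRELD2, HERPUD1 and ASNS are printed here. Whether an element had a part in any response was not tested. RefSeq windows on GRCh38.p14 running from 250 bases before to 50 bases after a start site were matched for 37 of the 40 members; PSPH, SHMT2 and PDIA3 were not matched. The ER stress response element (ERSE, searched as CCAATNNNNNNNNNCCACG on both strands), bound by ATF6 and XBP1, was in 0.0769% of all 35116 windows and in a window of 7 members, namely HSPA5, HSP90B1, CALR, CANX, CRELD2 and PDIA6 of the ER arm and XBP1 among the sensors. ERSE-II (ATTGGNCCACG) was in 0.0541% of windows and in those of HERPUD1, HYOU1 and SDF2L1. The core of the XBP1 element UPRE (TGACGTGG) was in 0.729% of windows and, among members, in HYOU1, where it overlapped an ERSE-II match. The core of the element that C/EBP and ATF4 bind together (CARE, TGATGNAA) was in 3.62% of windows and in ASNS, CEBPG, CHAC1, CREB3L2 and HERPUD1. ERSE was thus found in 6 of 17 ER arm members and 0 of 14 ATF4 arm members, and the CARE core in 3 of 14 ATF4 arm and 1 of 17 ER arm members. A member was counted if any of its windows held the element. The percentages over all windows are per window, so the shares are unlike measures and their difference is not a test. A match is only a match of letters and not a measured binding site. The following are the 250 bases before the start site, 5′ to 3′ on the gene's strand, with the matches in capitals.
HSPA5 and CRELD2 are shown because both hold an ERSE and moved in opposite directions with R1881 in 22Rv1, HERPUD1 because it holds an ERSE-II and a CARE core, and ASNS for its CARE core close to the start. They lie at chr9:125241344-125241593 (minus strand), chr22:49918384-49918633 (plus strand), chr16:56931892-56932141 (plus strand) and chr7:97872409-97872658 (minus strand).
HSPA5: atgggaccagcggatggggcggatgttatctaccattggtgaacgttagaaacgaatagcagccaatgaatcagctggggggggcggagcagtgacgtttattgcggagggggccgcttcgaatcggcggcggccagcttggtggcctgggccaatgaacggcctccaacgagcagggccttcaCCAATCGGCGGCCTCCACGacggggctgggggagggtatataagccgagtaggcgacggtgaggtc
CRELD2: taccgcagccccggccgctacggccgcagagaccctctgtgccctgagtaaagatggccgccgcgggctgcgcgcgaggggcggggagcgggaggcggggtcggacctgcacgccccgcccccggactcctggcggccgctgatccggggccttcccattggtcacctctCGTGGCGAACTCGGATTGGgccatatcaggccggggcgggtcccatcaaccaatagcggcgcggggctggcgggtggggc
HERPUD1: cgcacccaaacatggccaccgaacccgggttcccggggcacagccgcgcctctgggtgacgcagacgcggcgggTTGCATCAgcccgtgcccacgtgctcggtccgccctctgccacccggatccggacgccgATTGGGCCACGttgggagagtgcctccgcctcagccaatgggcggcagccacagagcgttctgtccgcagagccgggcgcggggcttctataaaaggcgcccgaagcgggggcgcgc
ASNS: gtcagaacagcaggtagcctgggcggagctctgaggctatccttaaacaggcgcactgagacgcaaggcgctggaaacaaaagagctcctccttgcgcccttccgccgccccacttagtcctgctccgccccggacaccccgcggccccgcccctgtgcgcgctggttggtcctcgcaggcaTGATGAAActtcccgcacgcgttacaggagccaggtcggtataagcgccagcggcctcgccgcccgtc
The capitals are the ERSE in HSPA5, 66 to 48 bases before the start, the ERSE in CRELD2 read on the opposite strand, 80 to 62 bases before the start, the reverse-strand CARE core and then the ERSE-II in HERPUD1, and the CARE core in ASNS, 68 to 61 bases before the start.

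**Figure D1:**
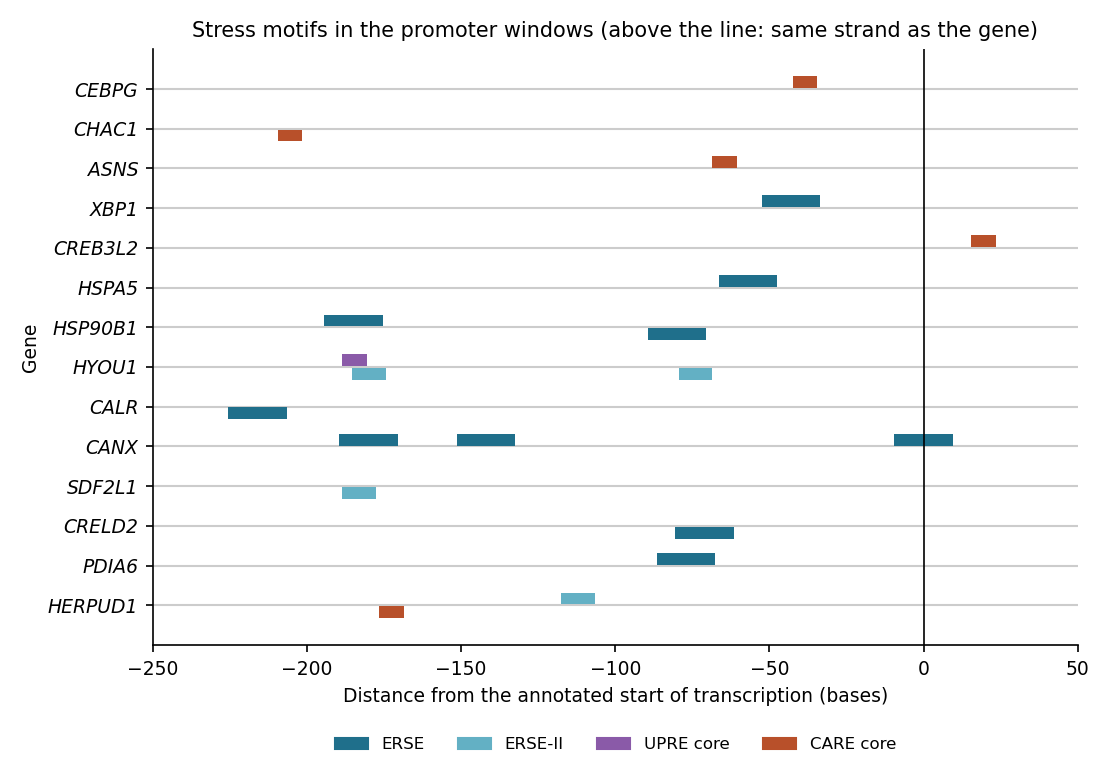
Places of the 4 searched elements in the RefSeq windows of the 14 members that hold one, as distance in bases from the annotated start (0, horizontal axis), with a row per gene and a bar per match, above the row line on the gene's strand and below it on the other. The ERSE marks are on ER arm genes and XBP1, and 3 of 5 genes with a CARE core belong to the ATF4 arm; the 3 ERSE marks of CANX are the same site seen from 3 annotated starts.

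Total counts per library ran from 15716224 to 21306019, so that 3 counts equalled 0.141 to 0.191 CPM (counts scaled to a common library size), and the lowest count of any member in any library was 59, for PPP1R15A. METTL3 transcript, the target, was at 19.9, 19.8 and 17.5 normalized CPM in the siMETTL3 vehicle libraries of LNCaP:C4-2 against 31.2, 28.6 and 26.5 in siSCR, and at 22.7, 22.02 and 22.6 against 30.6, 33.6 and 35.95 with R1881. In 22Rv1 it was at 25.3, 24.1 and 25.4 against 46.5, 45.5 and 46.8 with vehicle and at 21.4, 24.8 and 21.2 against 51.6, 48.8 and 50.9 with R1881. The knockdown was therefore partial: in LNCaP:C4-2 METTL3 fell by 33.8% with vehicle and 32.8% with R1881, and in 22Rv1 by 46.1% and 55.5%, lower in every siMETTL3 library (exact permutation test, two-sided, p = 0.1 each, the smallest that 3 against 3 allows). FKBP5, an androgen receptor target, rose with R1881 in both lines (log2 fold changes 3.49 and 3.33 in siSCR), while KLK3 (PSA) rose in LNCaP:C4-2 (4.08) and gave -0.01 in 22Rv1 (adjusted p = 0.955). All 8 luminal prostate cancer markers examined had at least 10 counts in every library of both lines, at a summed 2607 to 3862 CPM in LNCaP:C4-2 and 1254 to 1431 in 22Rv1; 3 of 5 leukocyte markers were at 3 counts or fewer in every library of either line, as were 4 of 5 fibroblast markers in LNCaP:C4-2 and 1 of 5 in 22Rv1, and 1 of 3 endothelial markers in LNCaP:C4-2 and 3 of 3 in 22Rv1. Other markers of these lists were detected: COL1A1 had 251 to 1288 counts over all libraries. VWF reached 214 counts, LUM 78, PTPRC 28 and CD14 15. In these bulk samples fewer cells of a type and less RNA per cell cannot be told apart. The LNCaP:C4-2 siMETTL3 vehicle replicate 1 library stood apart from its group: its root mean square deviation over genes was 0.343 on the log2 scale, against 0.205 to 0.306 in the other 23 libraries, mitochondrial transcripts took 9.6% of its counts against 6.89% and 7.03% in its partners, and 7 of the 40 members lay more than 0.5 (log2) beyond both partners. The main results that rest on it are given with and without it. Counts of DDIT3, MTHFD2, PDIA6, PDIA3, EIF2AK3, DNAJB11, CREB3L4, CEBPB and SYVN1, of whose exon bases 10.1% to 33.2% lie under another gene, are uncertain because counting did not use strand, and those of ATF4, ASNS, PSAT1, MTHFD2, PSPH, XBP1, HSPA5 and PDIA3 could lose fragments to pseudogene copies.

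Levels per length of exon ranged widely among the members. On the scale of mean normalized CPM per kilobase in siSCR vehicle cells, CALR (calreticulin, a lectin chaperone) led in LNCaP:C4-2 at 302, followed by PSAT1 at 242 and ATF4 at 201. HSP90B1 (GRP94, the ER member of the HSP90 family) led in 22Rv1 at 374, followed by ATF4 at 277 and PSAT1 at 250. The lowest were PPP1R15A (GADD34, which directs phosphatase to eIF2) at 1.74 in LNCaP:C4-2 and VLDLR, a lipoprotein receptor, at 2.56 in 22Rv1. The medians of the per-length levels over the ATF4 arm, the sensors and the ER arm were 45.0, 9.34 and 30.5 in LNCaP:C4-2 and 75.6, 15.8 and 35.5 in 22Rv1.

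The transcription factors and feedback genes of the ATF4 arm were higher in 22Rv1 than in LNCaP:C4-2 without androgen or knockdown. In siSCR vehicle cells all 8 had an adjusted p under 0.05 and 6 of them also passed 1.5-fold, with a median log2 difference (22Rv1 minus LNCaP:C4-2) of 1.37 against 0.03 over all genes tested. By the adjusted p alone, 7365 of the 19437 genes tested were higher in 22Rv1 and 6995 lower. A call here and in all comparisons of groups means that edgeR's quasi-likelihood test, adjusted over all genes by Benjamini-Hochberg, gave p under 0.05 and that the change reached 1.5-fold, and log2 values are given ± SE with n = 3 libraries per group. In all, 21 of 40 members (52.5%) were called, 18 of them higher and 3 lower in 22Rv1. Among all genes 59.2% were called (31.2% higher and 27.9% lower), so members were not called more often than genes at large.

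PPP1R15A was at 6.35, 6.39 and 3.42 CPM in LNCaP:C4-2 and at 53.2, 56.5 and 40.6 in 22Rv1 (3.21 ± 0.22, adjusted p = 7.61e-13). DDIT3 (CHOP, a transcription factor linked to death under long stress; chr12:57516588-57520517, minus strand) was at 24.9, 29.2 and 19.04 CPM against 138, 169.7 and 156 (2.66 ± 0.15, adjusted p = 9.6e-15). CEBPG, a partner of ATF4, was at 85.7, 87.7 and 94.8 against 303, 323 and 351 (1.86 ± 0.09, adjusted p = 2.62e-16). In each of these genes the lowest 22Rv1 library lay well above the highest LNCaP:C4-2 library. TRIB3, a pseudokinase that restrains ATF4 and AKT, SESN2, which restrains mTORC1, and CEBPB were higher by 1.43, 1.32 and 1.11 on the log2 scale. ATF4 itself (0.46) and CHAC1, which degrades glutathione (0.48), passed the adjusted p but not 1.5-fold.

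The enzymes were split. ASNS, asparagine synthetase, was at 401, 424 and 462 CPM in LNCaP:C4-2 against 909, 973 and 1132 in 22Rv1 (1.23 ± 0.09, adjusted p = 7.08e-12), and the mitochondrial folate enzyme MTHFD2 was higher by 1.23. PHGDH, the first enzyme of serine synthesis, was lower, at 814, 813 and 728 against 438, 452 and 389 (-0.88 ± 0.10, adjusted p = 1.82e-08). The later serine enzymes PSAT1 and PSPH gave 0.05 and 0.02, and SHMT2 0.09, with overlapping groups. STC2, a secreted glycoprotein of the ATF4 arm, was the most strongly lower member in 22Rv1, at 266, 309.6 and 214 CPM in LNCaP:C4-2 against 68.7, 68.7 and 63.6 (-1.98 ± 0.16, adjusted p = 2.23e-11).

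Among sensors, ATF6 (1.28), ERN1 (0.97), XBP1 (0.96) and CREB3L4, an ER-anchored factor abundant in prostate (0.72), were higher in 22Rv1, while EIF2AK3 gave 0.05 and CREB3L2, a factor of secretory capacity, 0.15. The ER arm had 6 members higher and 1 lower. HERPUD1, a component of the degradation complex that carries an ERSE-II, was at 70.8, 73.4 and 64.4 CPM in LNCaP:C4-2 and 226, 240.4 and 226 in 22Rv1 (1.73 ± 0.09, adjusted p = 6.21e-16), and SEL1L, the adaptor of the ligase HRD1, was higher by 1.25. HSP90B1, CANX (calnexin), DNAJB9 and DNAJC3, the latter pair being co-chaperones of BiP, were higher by 0.97, 0.95, 0.89 and 0.75. The disulfide isomerases went the other way: PDIA4 was called lower (-1.09), and PDIA3 and PDIA6 gave -0.39 and -0.42, past the adjusted p but not 1.5-fold. HSPA5 (BiP, the main ER chaperone; chr9:125234853-125241330, minus strand) gave -0.23. Median log2 differences were 0.80 for the ATF4 arm, 0.84 for the sensors and 0.25 for the ER arm. With offsets for GC content and gene length, 15 members were called higher and 7 lower, and XBP1, HSP90B1, CANX, DNAJB9 and DNAJC3 lost their calls.

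**Figure D2:**
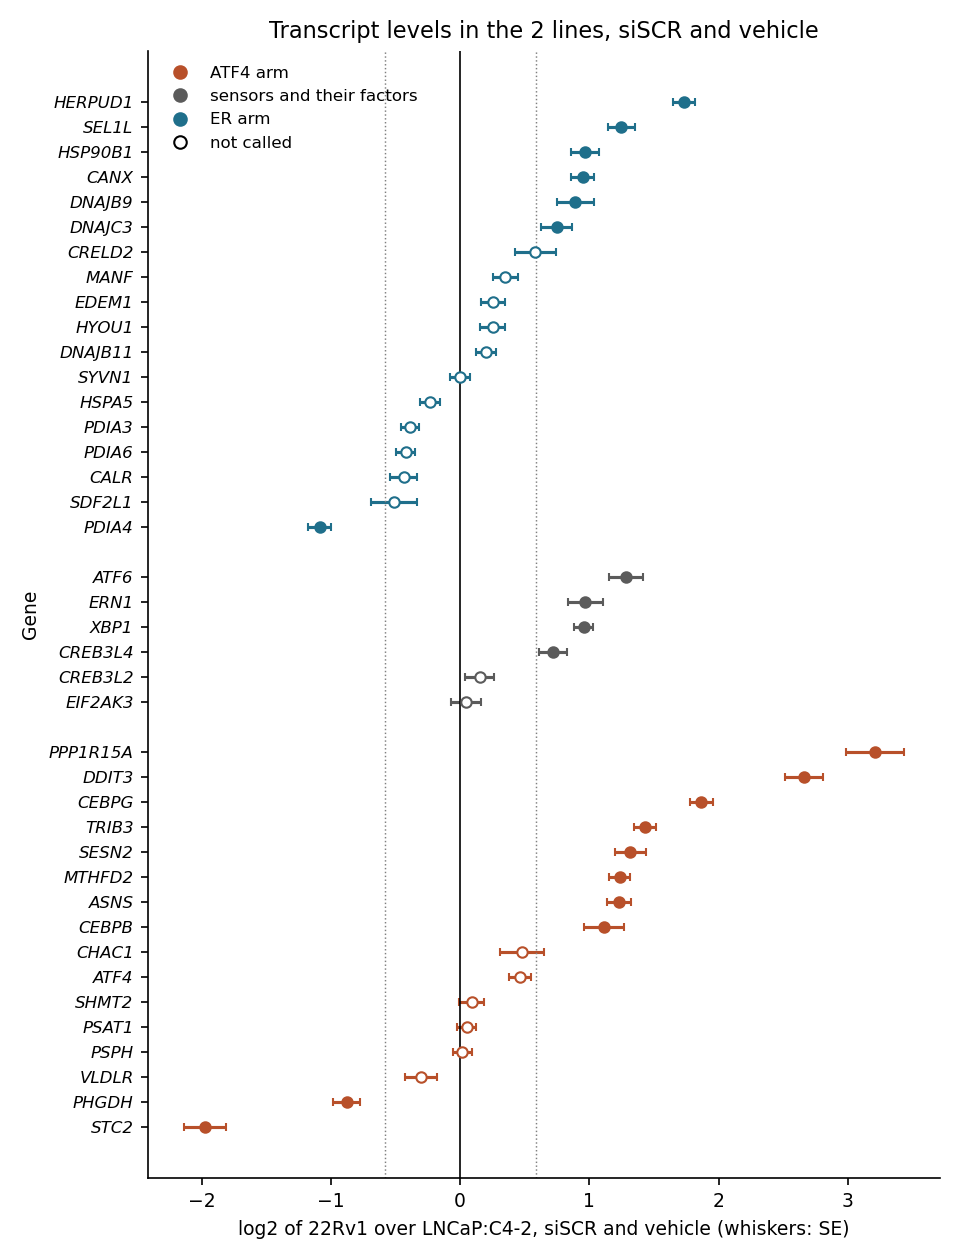
Log2 difference between the lines (22Rv1 over LNCaP:C4-2, siSCR with vehicle, horizontal axis) for the 40 members (rows, grouped by arm); points are edgeR estimates from 3 libraries per line, filled where called, whiskers are ± SE and dotted lines mark 1.5-fold. PPP1R15A and DDIT3 lie farthest to the right, STC2 farthest to the left, and the 3 disulfide isomerases lie left of 0.

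R1881 raised ERN1, CREB3L2 and DNAJB9 in both lines in siSCR cells. EDEM1 and SEL1L, of ER-associated degradation, passed the adjusted p on the higher side in both lines but reached 1.5-fold in 22Rv1 only (0.57, adjusted p = 0.000941 and 0.43, adjusted p = 0.00861 in LNCaP:C4-2; 0.64 and 0.60 in 22Rv1), and their responses were not separated between lines (adjusted p = 0.815 and 0.505). DESeq2 also called EDEM1 in LNCaP:C4-2. In LNCaP:C4-2 8 members were called (20% of 40, against 15.1% of all genes), 6 higher (background 7.39%) and 2 lower (7.72%). In 22Rv1 8 were called (20%, against 13.8%), 7 higher (4.19%) and 1 lower (9.64%). Neither overall share is far from its background. The median log2 fold change over members was 0.11 in LNCaP:C4-2 and 0.15 in 22Rv1, against -0.03 and 0.00 over all genes tested. These comparisons share no library between lines, and the 3 genes called in both are 3 of 8 in each list. The share of all genes called in both lines was not counted, so this overlap cannot be set against it.

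ERN1, which encodes the sensor IRE1 (chr17:64039142-64130819, minus strand), was at 39.2, 48.2 and 43.8 CPM with vehicle and 119.6, 99.6 and 101 with R1881 in LNCaP:C4-2 (1.28 ± 0.16, adjusted p = 3.54e-05). In 22Rv1 it was at 85.9, 88.1 and 82.7 and 138, 138 and 125 (0.64 ± 0.08, adjusted p = 1.4e-06). DNAJB9 (ERdj4, a known target of XBP1; chr7:108569568-108574850, plus strand) went from 23.2, 21.8 and 23.1 to 49.7, 44.3 and 42.1 in LNCaP:C4-2 (0.99 ± 0.15, adjusted p = 0.000165). All R1881 libraries lay above all vehicle libraries in each case.

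In 22Rv1 DNAJB9 went from 33.9, 43.8 and 48.9 to 73.3, 78.1 and 73.3 CPM (0.82 ± 0.11, adjusted p = 4.33e-06). CREB3L2 went from 86.9, 97.05 and 94.6 to 149, 145 and 154 in LNCaP:C4-2 (0.67 ± 0.10, adjusted p = 0.000216) and from 92.7, 111 and 105 to 174, 172 and 159 in 22Rv1 (0.70 ± 0.10, adjusted p = 8.17e-06). The R1881 and vehicle groups did not overlap in either line for these genes. CREB3L4 (chr1:153967534-153974363, plus strand) rose in LNCaP:C4-2, from 53.02, 54.4 and 47.4 to 91.2, 86.1 and 80.5 (0.73 ± 0.14, adjusted p = 0.00115), while in 22Rv1 it was at 86.2, 89.4 and 79.3 and 80.1, 75.8 and 77.2 (-0.14 ± 0.08, adjusted p = 0.175). The responses of CREB3L4 differed between lines (22Rv1 minus LNCaP:C4-2 -0.87 ± 0.16, adjusted p = 0.000232), as did those of ERN1 (-0.65 ± 0.19, adjusted p = 0.017), whereas CREB3L2 and DNAJB9 gave differences of 0.03 and -0.17 (adjusted p = 0.962 and 0.644). XBP1 gave -0.13 in LNCaP:C4-2 (adjusted p = 0.279) and -0.43 in 22Rv1 (adjusted p = 4.56e-05, under 1.5-fold). ATF6 gave 0.43 and 0.49, and EIF2AK3 0.24 and 0.46, of which only the 22Rv1 values passed the adjusted p.

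HSPA5 was raised by R1881 in 22Rv1. With vehicle and R1881 it was at 736, 783 and 804 and 780.2, 761 and 817 CPM in LNCaP:C4-2 (0.01 ± 0.08, adjusted p = 0.925) and at 605, 705 and 666 and 1174, 1220.0 and 1104 in 22Rv1 (0.82 ± 0.08, adjusted p = 3.91e-08). The LNCaP:C4-2 groups overlapped, the 22Rv1 groups did not, and the difference of the responses was 0.80 ± 0.11, adjusted p = 8.55e-06. HYOU1 (GRP170, a nucleotide exchange factor of BiP) gave -0.27 and 0.40, with a difference of 0.67 ± 0.14, adjusted p = 0.0013, and DNAJB11 (ERdj3) gave -0.03 and 0.30. CRELD2, a secreted ER stress protein that shares the ERSE printed above, moved against HSPA5 in 22Rv1, from 96.2, 84.1 and 69.4 to 52.2, 49.5 and 47.5 CPM (-0.75 ± 0.12, adjusted p = 4.18e-05). In LNCaP:C4-2 it was at 60.3, 58.1 and 48.7 and 47.1, 38 and 37.4 (-0.46 ± 0.18, adjusted p = 0.0739), and the responses of the lines were not separated (-0.30 ± 0.23, adjusted p = 0.432). Of the other ERSE genes, CALR gave -0.18 and -0.34, CANX 0.36 and 0.34, HSP90B1 0.12 and 0.07, and PDIA6 0.13 and 0.08 in LNCaP:C4-2 and 22Rv1, so genes with the element went in both directions. DNAJC3 (p58IPK, which inhibits PERK) was called in LNCaP:C4-2, from 55.6, 59.7 and 60.5 to 82.8, 91.2 and 97.2 (0.62 ± 0.14, adjusted p = 0.00392), and gave 0.31 in 22Rv1.

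The 4 degradation genes all had positive responses to R1881 in siSCR cells, with medians of 0.46 in LNCaP:C4-2 and 0.41 in 22Rv1. EDEM1, which draws misfolded glycoproteins out of the folding cycle (chr3:5187646-5219957, plus strand), went from 86.99, 97.3 and 101 to 135, 144 and 149 CPM in LNCaP:C4-2 (0.57 ± 0.11, adjusted p = 0.000941, just under 1.5-fold) and from 109, 119 and 112 to 178, 182 and 171 in 22Rv1 (0.64 ± 0.07, adjusted p = 6.8e-07). SEL1L went from 126, 133 and 129 to 166, 183 and 178 (0.43 ± 0.11, adjusted p = 0.00861) and from 264, 324 and 334 to 459, 482 and 461 (0.60 ± 0.08, adjusted p = 8.72e-06). R1881 and vehicle libraries did not overlap for either gene in either line. SYVN1, the ubiquitin ligase HRD1, gave 0.48 and 0.21, and HERPUD1 0.35 and 0.14. In LNCaP:C4-2 all 4 passed the adjusted p and none 1.5-fold, and in 22Rv1 3 of 4 passed the adjusted p and 2 were called. By the adjusted p alone, 2088 of the 16435 genes tested in LNCaP:C4-2 and 2962 of the 17865 in 22Rv1 were higher. Positive values were given by 7745 and 8975 of these genes.

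The ATF4 arm did not share one direction. In LNCaP:C4-2 the called members were SESN2, from 63.96, 64.5 and 54.1 to 49.99, 30.9 and 38.5 CPM (-0.62 ± 0.15, adjusted p = 0.00744), PHGDH, from 814, 813 and 728 to 599, 436 and 504 (-0.62 ± 0.12, adjusted p = 0.00117), and VLDLR, from 27.2, 31.04 and 30.3 to 39.3, 48.3 and 51.3 (0.64 ± 0.14, adjusted p = 0.00412). SESN2 and PHGDH fell and VLDLR rose, without overlap of the groups. PSAT1 and PSPH gave -0.38 and -0.35, so all 3 serine synthesis enzymes had an adjusted p under 0.05 on the lower side. By that rule 1993 of the 16435 genes tested were lower. The other 3 of the 6 enzymes, ASNS, SHMT2 and MTHFD2, gave positive values. In 22Rv1 the called member was DDIT3, from 138, 169.7 and 156 to 250.2, 272 and 257 (0.74 ± 0.08, adjusted p = 1.06e-07), while in LNCaP:C4-2 DDIT3 was at 24.9, 29.2 and 19.04 and 29.9, 21.8 and 23.2 (0.02 ± 0.18, adjusted p = 0.947). PPP1R15A, CEBPG, SESN2 and ASNS gave 0.48, 0.21, 0.26 and 0.42 in 22Rv1, past the adjusted p but not 1.5-fold, and STC2 gave 0.04 and 0.03 in LNCaP:C4-2 and 22Rv1.

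The R1881 responses of 13 members (32.5%) differed between lines at an adjusted p under 0.05, the rule used for differences of responses, against 16.8% of all genes: 8 were higher in 22Rv1 (7.78% of all genes) and 5 lower (9.02%). Those higher were HSPA5, HYOU1, DNAJB11, SESN2, DDIT3, PSAT1, PHGDH and PSPH, and those lower were CREB3L4, ERN1, VLDLR, TRIB3 and XBP1. In the ATF4 arm SESN2 gave 0.88 ± 0.17, adjusted p = 0.000638, DDIT3 0.72 ± 0.20, adjusted p = 0.0146 and PSAT1 0.54 ± 0.10, adjusted p = 0.000494. Mitochondrial transcripts were 6.12% to 6.89% of counts in the vehicle and 4.96% to 5.28% in the R1881 siSCR libraries of 22Rv1, and 8.02% to 8.48% and 7.08% to 9.73% in those of LNCaP:C4-2; the part of this share in the responses was not tested. With DESeq2 or DESeq2's size factors in edgeR the split was 6 higher and 6 lower. When only library size was scaled, the median of all genes in LNCaP:C4-2 with R1881 moved from -0.03 to -0.15 and 3 members were called higher and 2 lower, and with GC and length offsets 4 were called higher and 0 lower; without single libraries the LNCaP:C4-2 count ranged from 6 to 9, with ERN1, CREB3L2, CREB3L4 and DNAJB9 kept in each, and the 22Rv1 count from 7 to 8.

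**Figure D3:**
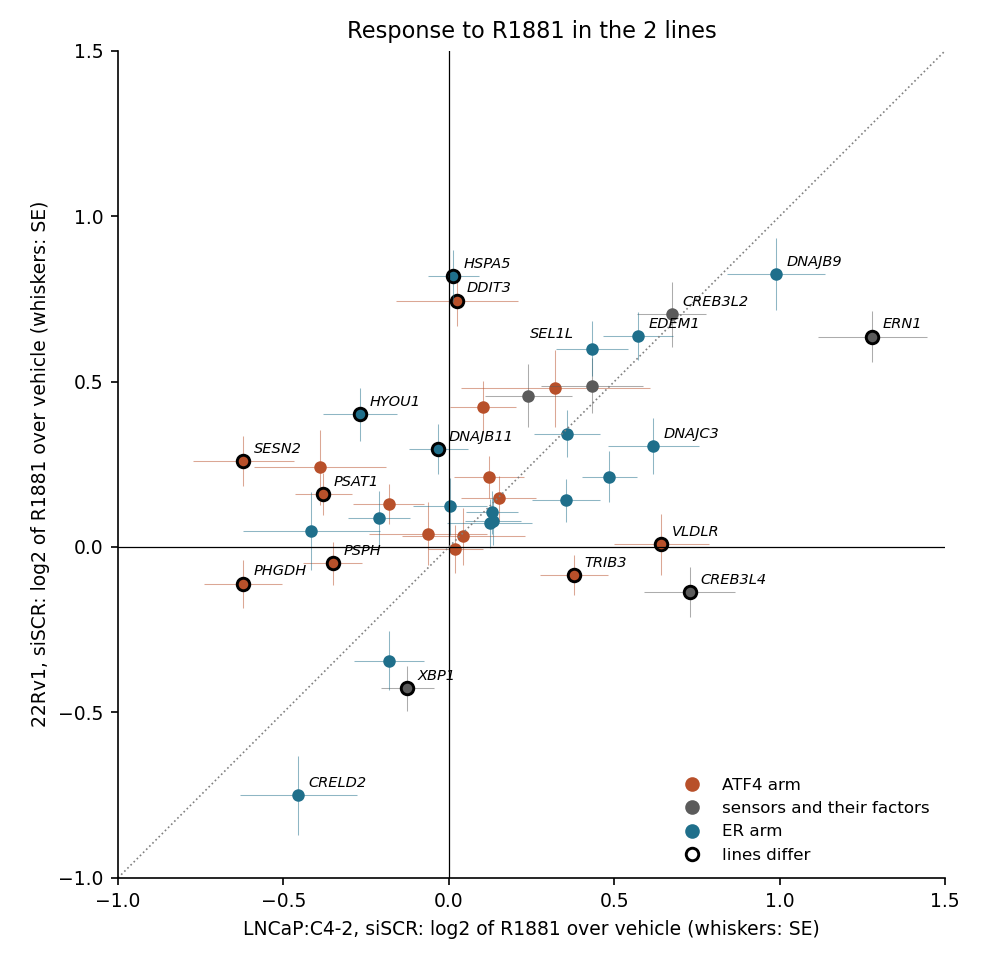
Log2 fold change with R1881 in siSCR cells of LNCaP:C4-2 (horizontal axis) and 22Rv1 (vertical axis); each point is 1 of the 40 members coloured by arm, whiskers are ± SE, the dotted line marks equal responses, and the 13 members whose responses differed between lines are outlined. ERN1, DNAJB9 and CREB3L2 lie high on both axes, HSPA5 and DDIT3 high on the 22Rv1 axis and near 0 on the other, and CREB3L4 high on the LNCaP:C4-2 axis and below 0 on the other.

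In siMETTL3 cells R1881 called 1 member in LNCaP:C4-2 and 7 in 22Rv1. The LNCaP:C4-2 member was CREB3L4, at 36.5, 52.9 and 58.6 CPM with vehicle and 92.7, 100.2 and 99.1 with R1881 (0.99 ± 0.14, adjusted p = 0.000101), against a background of 10.6% of all genes and 5.09% on the higher side, so the members' share of 2.5% was below that of genes at large. ERN1 was at 103, 80.7 and 61.8 and 113, 129 and 93.1 (0.47 ± 0.16, adjusted p = 0.06) and DNAJB9 at 52.3, 38.1 and 31.9 and 44.7, 51.1 and 43.7 (0.21 ± 0.15, adjusted p = 0.379), and the groups overlapped for both. Without the siMETTL3 vehicle library that stood apart, ERN1 and SESN2 were called as well (log2 0.65 and -0.60), DNAJB9 gave 0.41 (adjusted p = 0.0168, under 1.5-fold), and CREB3L4 kept its call at 0.81. In 22Rv1 DDIT3 (0.94 ± 0.08, adjusted p = 2.8e-09), HSPA5 (0.66 ± 0.08, adjusted p = 9.42e-07), DNAJB9 (0.82 ± 0.11, adjusted p = 5.28e-06), PPP1R15A (0.65 ± 0.12, adjusted p = 0.000146), CREB3L2 (0.61 ± 0.10, adjusted p = 4.39e-05) and EDEM1 (0.60 ± 0.08, adjusted p = 2.02e-06) were higher and CRELD2 was lower (-0.78 ± 0.12, adjusted p = 2.04e-05), against a background of 13.5%, with 4.18% higher and 9.29% lower. HSPA5 was at 676, 549 and 614 CPM with vehicle and 991, 907 and 1056 with R1881 in these cells, and CRELD2 at 94.9, 138 and 115 and 71.02, 67.98 and 66.98.

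Whether knockdown altered the R1881 response was tested by the interaction. No member passed an adjusted p of 0.05 in edgeR in either line; at an unadjusted p under 0.05 there were 11 of 40 in LNCaP:C4-2 and 6 of 40 in 22Rv1, and DESeq2 called 0 members in both. Among all genes 0.0% (0 genes) and 0.0168% (3 genes) were called, and DESeq2 called 57 genes in LNCaP:C4-2. At an unadjusted p under 0.05 there were 2037 of 16435 genes in LNCaP:C4-2 and 1101 of 17865 in 22Rv1. In LNCaP:C4-2 ERN1 gave -0.81 ± 0.23, adjusted p = 0.306, DNAJB9 -0.78 ± 0.21, adjusted p = 0.293, VLDLR -0.72 ± 0.20, adjusted p = 0.314 and SEL1L -0.59 ± 0.15, adjusted p = 0.293. Without the library that stood apart these were -0.63, -0.57, -0.64 and -0.46, and 0 members passed. In 22Rv1 the 18 ER arm members all had negative estimates, with a median of -0.09 and HSP90B1 lowest of them at -0.32 (adjusted p = 0.802). Of the 16 ATF4 arm members 11 were positive, with a median of 0.15. Over all genes 9129 were negative and 8736 positive, and the median was within 0.01 of 0. All members were read in the same libraries, so these signs are not separate results. Without 22Rv1 siSCR vehicle replicate 3, HSP90B1 was called lower (30 genes called in all), and without 22Rv1 siMETTL3 vehicle replicate 1 the median over the 40 members moved from -0.04 to within 0.01 of 0. With no filter on low counts ATF6, DNAJB9, ERN1, SEL1L and VLDLR were called lower in LNCaP:C4-2.

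**Figure D4:**
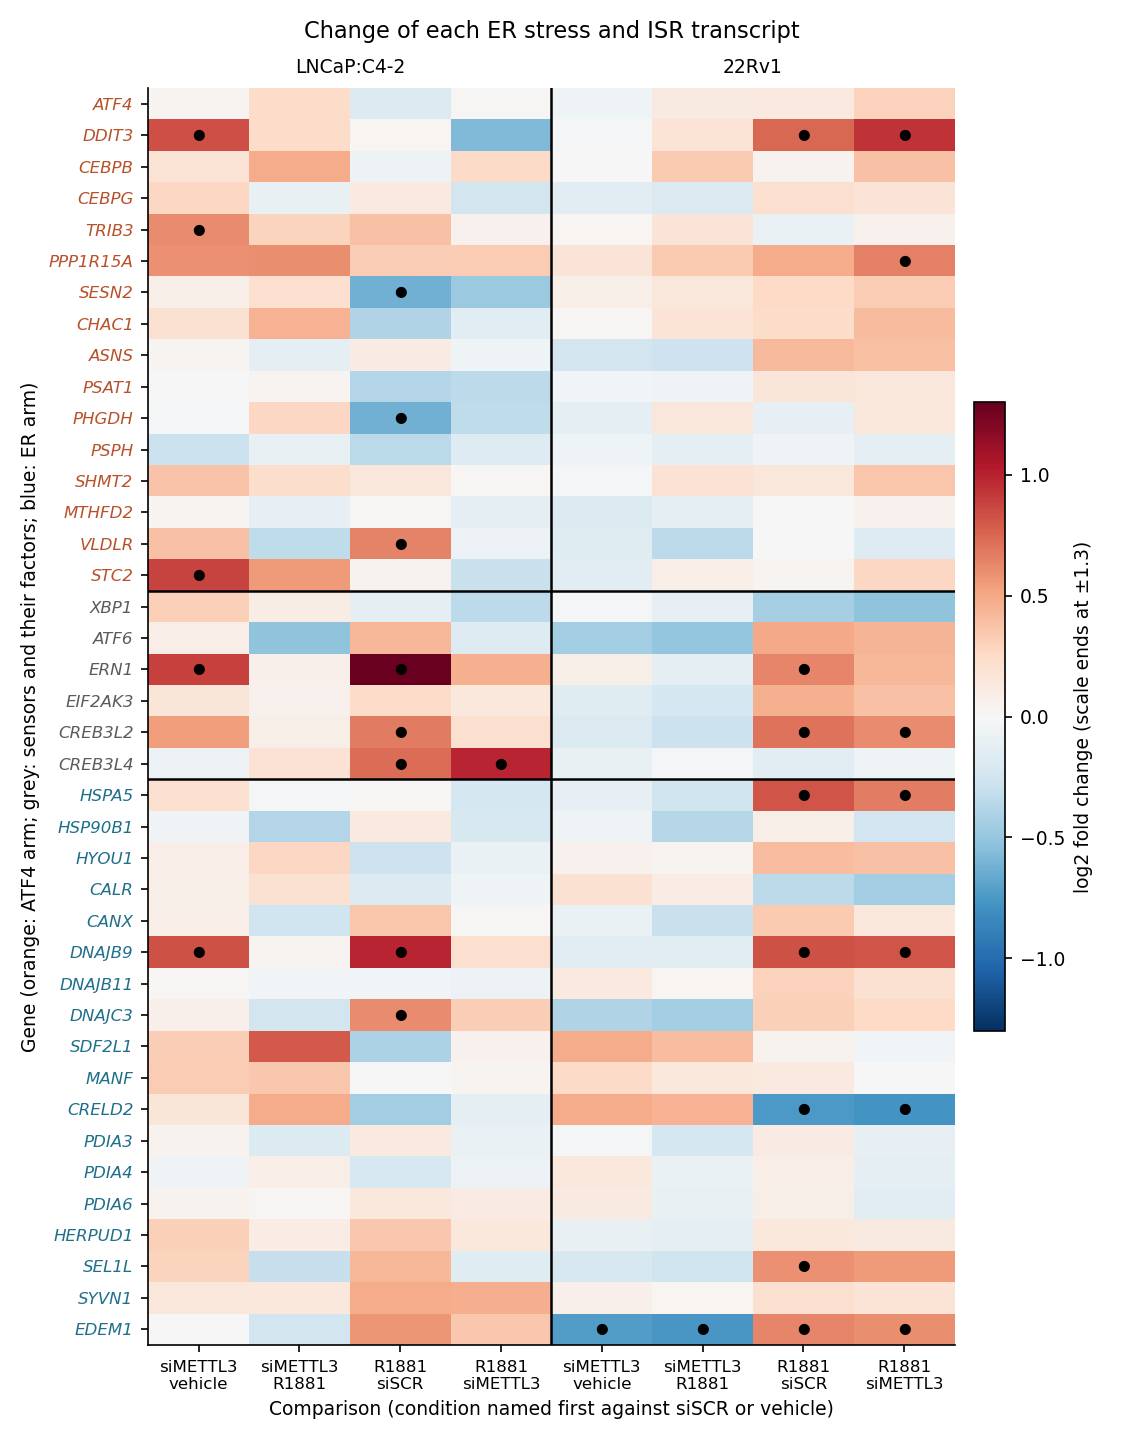
Log2 fold changes of the 40 members (rows, by arm) in the 8 comparisons within a line (columns: knockdown with vehicle and with R1881, and R1881 in siSCR and siMETTL3 cells, in each line), blue for lower and red for higher on a scale that ends at ±1.3, with a dot on each call. The dots in the knockdown columns are 5 in LNCaP:C4-2 with vehicle, 0 with R1881, and EDEM1 alone in both 22Rv1 columns.

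METTL3 knockdown raised 5 members in LNCaP:C4-2 with vehicle, and 3 of them belong to the ATF4 arm: DDIT3, TRIB3 and STC2. The others were ERN1 among sensors and DNAJB9 in the ER arm. The 5 are 12.5% of the members, where 1.2% of all genes were called and 0.828% called higher, and 0 members were called lower. The median over members was 0.15 against 0.00 over all genes. STC2 (chr5:173314713-173329503, minus strand) was at 266, 309.6 and 214 CPM in siSCR and 456, 555 and 459.9 in siMETTL3 (0.88 ± 0.19, adjusted p = 0.0293). DDIT3 was at 24.9, 29.2 and 19.04 and 49.3, 47.4 and 35.7 (0.84 ± 0.18, adjusted p = 0.0319), and TRIB3 at 153, 180.5 and 152 and 238, 267 and 248 (0.62 ± 0.10, adjusted p = 0.00977). In each of them the lowest siMETTL3 library lay above the highest siSCR library. ERN1 was at 39.2, 48.2 and 43.8 and 103, 80.7 and 61.8 (0.89 ± 0.16, adjusted p = 0.0163), and DNAJB9 at 23.2, 21.8 and 23.1 and 52.3, 38.1 and 31.9 (0.82 ± 0.15, adjusted p = 0.0149). These were also without overlap, but their highest siMETTL3 value came from the replicate 1 library that stood apart; without it the log2 fold changes were 0.69 for ERN1 and 0.61 for DNAJB9, the 5 genes kept their calls, and SDF2L1, a BiP co-chaperone with an ERSE-II, was called too (0.60).

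The calls depended on single libraries elsewhere: leaving out siSCR vehicle replicate 1 or 3 or siMETTL3 vehicle replicate 2 left 0 members called, with 6, 0 and 8 calls over all genes, and leaving out siSCR vehicle replicate 2 left 4. The same siSCR vehicle libraries serve the R1881 comparison above, in which ERN1 and DNAJB9 were also called, so the results for these 2 genes are not separate. ATF4 mRNA was at 517, 517 and 481 in siSCR and 464, 544 and 567 in siMETTL3 (0.04 ± 0.11, adjusted p = 0.896), with overlapping groups. CREB3L2 gave 0.54, past the adjusted p (0.0205) but not 1.5-fold. Chaperones with an ERSE gave small values, from -0.05 for HSP90B1 to 0.21 for HSPA5 (adjusted p = 0.897 and 0.186), with CALR, CANX and CRELD2 between them. Without the library that stood apart HSP90B1 gave -0.15, HSPA5 0.19 and CRELD2 0.38 (adjusted p = 0.0771). The amino acid enzymes ranged from -0.28 for PSPH to 0.37 for SHMT2, and 0 of 6 were called. Without the library that stood apart they ranged from -0.26 for PSPH to 0.46 for SHMT2 (adjusted p = 0.1099 and 0.02725). In that fit CREB3L2 gave 0.43 (adjusted p = 0.02261) and XBP1 0.31 (adjusted p = 0.04368). SHMT2, CREB3L2 and XBP1 thus passed the adjusted p there but not 1.5-fold.

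With R1881, knockdown called 0 of 40 members in LNCaP:C4-2, against 0.7% of all genes. At an unadjusted p under 0.05 there were 18 members, beside 4702 of the 16435 genes tested. DESeq2 called 1 member, SDF2L1, against 3.14% of all genes. SDF2L1 was at 28.4, 24.2 and 26.3 CPM in siSCR and 51.4, 41.8 and 43.3 in siMETTL3 (0.79 ± 0.21, adjusted p = 0.0638), without overlap. STC2 was at 368, 201 and 251 and 392, 469 and 334 (0.55 ± 0.19, adjusted p = 0.0923), TRIB3 gave 0.29 ± 0.10, adjusted p = 0.0994, and DDIT3, ERN1 and DNAJB9 gave 0.24, 0.07 and 0.04 with overlapping groups. In LNCaP:C4-2 siSCR R1881 replicate 1, CEBPB, PPP1R15A and STC2 lay more than 0.5 (log2) above both partners, and mitochondrial transcripts were 7.08% of its counts against 9.73% and 9.69%. Without that library 4 members were called higher, CEBPB, PPP1R15A, SDF2L1 and STC2, while the share of all genes called rose to 8.89% (1497 genes), so that 4 of 40 was near the share of genes at large.

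In 22Rv1 the knockdown called a single member, EDEM1, and it fell with vehicle and with R1881. It was at 109, 119 and 112 CPM in siSCR and 74.2, 62.05 and 69.7 in siMETTL3 with vehicle (-0.72 ± 0.07, adjusted p = 8.64e-06), and at 178, 182 and 171 and 101, 104 and 112 with R1881 (-0.76 ± 0.07, adjusted p = 2.48e-06). The groups did not overlap under either treatment, these comparisons share no library, and the call was kept under every alternative and without each single library. Mitochondrial transcripts were 3.93% to 4.24% of counts in the siMETTL3 and 4.96% to 5.28% in the siSCR libraries with R1881, and the part of this share was not tested. The backgrounds were 0.202% of all genes called with vehicle (0.14% lower) and 3.29% with R1881 (0.985% lower). In LNCaP:C4-2 EDEM1 was at 86.99, 97.3 and 101 in siSCR and 110.1, 88.1 and 89.02 in siMETTL3 with vehicle (-0.01 ± 0.11, adjusted p = 0.977), with overlapping groups, and gave -0.24 ± 0.11, adjusted p = 0.158 with R1881.

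ATF6 and DNAJC3 also passed the adjusted p on the lower side under both treatments in 22Rv1, without reaching 1.5-fold: ATF6 gave -0.46 ± 0.08, adjusted p = 0.0103 with vehicle and -0.50 ± 0.08, adjusted p = 0.00123 with R1881, and DNAJC3 -0.40 ± 0.09, adjusted p = 0.0336 and -0.44 ± 0.09, adjusted p = 0.00298. CRELD2 and SDF2L1 gave positive values, 0.45 ± 0.12, adjusted p = 0.0158 and 0.40 ± 0.12, adjusted p = 0.0246 with R1881, and 0.48 and 0.49 with vehicle (adjusted p = 0.0592 and 0.0575). Without siMETTL3 vehicle replicate 1, in which mitochondrial transcripts were 7.45% of counts against 5.27% and 5.04% in its partners, CRELD2 and SDF2L1 were called higher, and CRELD2 also without siSCR vehicle replicate 1. With R1881, 11 members had an adjusted p under 0.05 on the lower side, among them HSP90B1 (-0.37), CANX (-0.29), HSPA5 (-0.26), PDIA3 (-0.23) and SEL1L (-0.26), and 4 on the higher side, CEBPB, PPP1R15A, CRELD2 and SDF2L1. By the same rule, 1301 of the 17865 genes tested were lower and 1596 higher. The members called in LNCaP:C4-2 with vehicle gave -0.02 (DDIT3), 0.03 (TRIB3), -0.14 (STC2), 0.07 (ERN1) and -0.14 (DNAJB9) in 22Rv1 with vehicle, all with overlapping groups.

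The knockdown effects with vehicle differed between lines for 7 members, all lower in 22Rv1, against 0.458% of all genes (0.37% lower): STC2 (-1.04 ± 0.22, adjusted p = 0.0255), DNAJB9 (-0.98 ± 0.20, adjusted p = 0.0201), DDIT3 (-0.88 ± 0.20, adjusted p = 0.0444), ERN1 (-0.83 ± 0.19, adjusted p = 0.0416), CREB3L2 (-0.75 ± 0.15, adjusted p = 0.0201), EDEM1 (-0.73 ± 0.13, adjusted p = 0.00755) and TRIB3 (-0.60 ± 0.12, adjusted p = 0.0137). EDEM1 fell in 22Rv1, and the other 6 gave positive values in LNCaP:C4-2. The count ranged from 0 to 12 when single libraries were left out; it was 4 without the library that stood apart (EDEM1, STC2, DNAJB9 and TRIB3), and 0, 1, 2, 1, 2 and 3 without LNCaP:C4-2 siSCR vehicle replicate 1 or 3, LNCaP:C4-2 siMETTL3 vehicle replicate 2, 22Rv1 siSCR vehicle replicate 2, or 22Rv1 siMETTL3 vehicle replicate 2 or 3. METTL3 itself gave -0.30 ± 0.13, adjusted p = 0.353 in this test of the lines. With R1881 0 members differed in edgeR, against 0.0926% of all genes, and EDEM1 was called by DESeq2. At an unadjusted p under 0.05 there were 2 members, beside 1469 of the 19437 genes tested. In edgeR EDEM1 gave -0.50 ± 0.13, adjusted p = 0.159.

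Of the 40 members, 24 were called in none of the 8 comparisons within a line: ATF4, CEBPB, CEBPG, CHAC1, ASNS, PSAT1, PSPH, SHMT2, MTHFD2, XBP1, ATF6, EIF2AK3, HSP90B1, HYOU1, CALR, CANX, DNAJB11, SDF2L1, MANF, PDIA3, PDIA4, PDIA6, HERPUD1 and SYVN1. The share of all genes called in none of these comparisons was not counted, so the 24 cannot be set against it. The log2 fold changes of the 24 lay between -0.52 for XBP1 and 0.79 for SDF2L1. ATF4 protein is controlled in large part at translation, which these counts do not measure. The mRNA ran from 376 to 567 CPM over all LNCaP:C4-2 libraries and from 656 to 838 in 22Rv1, a 1.51-fold and a 1.28-fold range. MANF, a protein of the ER that can be secreted, gave 0.33 and 0.35 for knockdown in LNCaP:C4-2 and 0.25 and 0.13 in 22Rv1 with vehicle and R1881, which passed neither threshold in any of them. Without the library that stood apart its value for knockdown with vehicle in LNCaP:C4-2 was 0.45 (adjusted p = 0.0172), past the adjusted p and under 1.5-fold.

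**Figure D5:**
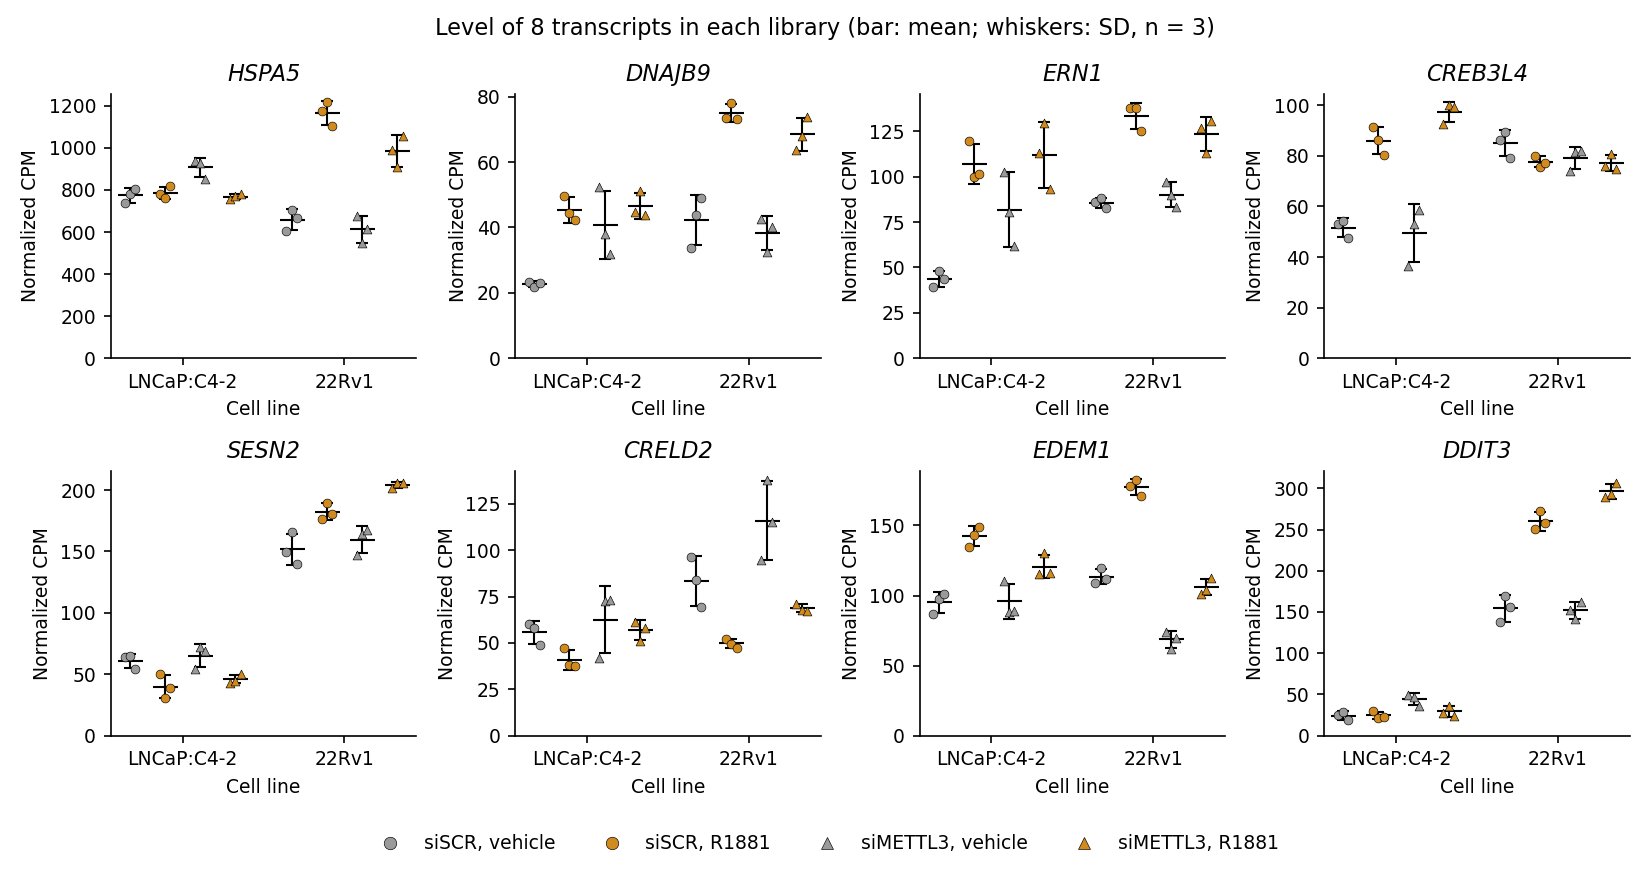
Normalized CPM (vertical axes, from 0) of HSPA5, DNAJB9, ERN1, CREB3L4, SESN2, CRELD2, EDEM1 and DDIT3 in the 24 libraries, by cell line; points are single libraries (circles siSCR, triangles siMETTL3, grey vehicle, orange R1881), bars are group means and whiskers SD with n = 3. EDEM1 is lower in siMETTL3 than in siSCR libraries of 22Rv1 under both treatments, HSPA5 of 22Rv1 stands higher with R1881, CRELD2 of 22Rv1 stands lower, and DDIT3 is low in all LNCaP:C4-2 groups beside 22Rv1.

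A wider set of 103 genes of the same pathways (eIF2 kinases and eIF2 subunits, other ATF4 targets, aminoacyl-tRNA synthetases, other ER folding and degradation genes, and genes of translocation and ER to Golgi traffic) was read beside the members. R1881 in siSCR cells called 17 of 100 tested higher and 2 lower in LNCaP:C4-2, and 12 of 102 higher and 2 lower in 22Rv1, which is 19% and 13.7% of the set against 15.1% and 13.8% of all genes. In LNCaP:C4-2 those higher included ERO1A, an ER oxidase that recharges disulfide isomerases, from a mean of 132 to 373 CPM (1.49 ± 0.20, adjusted p = 5.76e-05), the retrieval receptor KDELR3 (1.42), the disulfide isomerase PDIA2 (1.34, at a mean of 0.788 CPM with vehicle) and the coat protein SEC24D (1.24). In 22Rv1 the calnexin homologue CLGN (1.32 ± 0.14, adjusted p = 1.12e-07) and the oxidase ERO1B (1.24 ± 0.09, adjusted p = 6.97e-10) rose, and ATF5, an ATF4 relative, fell (-1.09). Aminoacyl-tRNA synthetases had 0 of 13 and eIF2 genes 0 of 11 called in either line in this comparison. In siMETTL3 cells R1881 called 4 higher and 0 lower in LNCaP:C4-2, and 10 higher and 2 lower in 22Rv1, 4% and 11.8% of the set against 10.6% and 13.5% of all genes.

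Knockdown with vehicle in LNCaP:C4-2 called 4 of the 100 higher and 0 lower, against 1.2% of all genes called and 0.828% higher, in the fit whose calls over all genes fell to 6, 0 and 8 without single libraries: ERO1A, from a mean of 132 CPM to 310.2 (1.22 ± 0.20, adjusted p = 0.00977), ATF3, a transcription factor downstream of ATF4, from 19.9 to 42.3 (1.07 ± 0.17, adjusted p = 0.00977), KDELR3 (0.90) and PDIA2 (1.67, at a mean of 0.788 CPM in siSCR). In 22Rv1 it called 0 of 102 with vehicle and 3 with R1881, FKBP2 and DDIT4 higher and KDELR3 lower, against 0.202% and 3.29% of all genes. With vehicle 26 of the 102 had an unadjusted p under 0.05, beside 2604 of the 17865 genes tested. The knockdown effects with vehicle differed between lines for ERO1A (-1.57 ± 0.24, adjusted p = 0.00263), ATF3 (-1.05 ± 0.18, adjusted p = 0.00741) and ERO1B (-1.01 ± 0.22, adjusted p = 0.0342), 2.94% of the set against 0.458% of all genes. In siSCR vehicle cells 23 of 102 were called higher and 27 lower in 22Rv1 (49% of the set, against 59.2% of all genes), among them ALDH1L2, a mitochondrial folate enzyme, at a mean of 472 CPM against 0.386 in LNCaP:C4-2, and SLC7A5, a transporter of large neutral amino acids, at 3325 against 486.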

How the data were processed

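RNA-seq libraries of LNCaP:C4-2 and 22Rv1 were paired-end. The authors used Trim Galore on the reads and STAR for alignment to GRCh38, and deposited raw fragment counts per gene from featureCounts 1.5.0 with Ensembl release 83, without strand. Its defaults leave out fragments that map to several places or overlap several genes, which lowers counts of overlapping genes and of genes with close copies. Samples were grouped by their labels, 3 per group. The 40 members and the wider lists were chosen with earlier results of these data known.

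Counts were tested in edgeR 4.0.16 (R 4.3.3, limma 3.58.1) by quasi-likelihood, with TMM scaling and filterByExpr (minimum count 10), in 1 fit of 12 libraries per line (16435 and 17865 genes tested) or of 24 for differences between lines (19437). Calls needed an adjusted p under 0.05 and 1.5-fold, or the adjusted p alone for interactions and line differences. Normalized CPM are counts scaled by TMM effective library size over all 24 libraries. On simulated counts with 200 genes changed by 1 on the log2 scale, edgeR recovered 82% (knockdown in LNCaP:C4-2, 16076 genes), 92% (knockdown in 22Rv1, 17539 genes) and 69% (line difference in knockdown, 19022 genes). Values in every library are given for members called at least once; of the wider lists at most 4 genes per comparison, those with the largest changes, are named. Alternatives were DESeq2 1.42.0, other scalings and filters, a replicate block, other thresholds, only the 6 libraries compared and leaving out each library; offsets for GC content and length were chosen after seeing the data. Precision covers counting error and replicate spread at these depths.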

Additional observations from a re-analysis of the deposited data

Results flagged for a closer look

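The responses of 13 members to R1881 in siSCR cells, and the effects of METTL3 knockdown with vehicle on 7 members, differed between LNCaP:C4-2 and 22Rv1 when edgeR tested the difference itself over 19437 genes (adjusted p under 0.05). Values are 22Rv1 minus LNCaP:C4-2 on the log2 scale. For R1881 the larger response or smaller decline was in 22Rv1 for SESN2 (0.88), HSPA5 (0.80), DDIT3 (0.72), HYOU1 (0.67), PSAT1 (0.54), PHGDH (0.51), DNAJB11 (0.33) and PSPH (0.30). The sign was opposite for CREB3L4 (-0.87), ERN1 (-0.65), VLDLR (-0.64), TRIB3 (-0.47) and XBP1 (-0.30). For knockdown with vehicle the values were STC2 (-1.04), DNAJB9 (-0.98), DDIT3 (-0.88), ERN1 (-0.83), CREB3L2 (-0.75), EDEM1 (-0.73) and TRIB3 (-0.60).

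DDIT3, ERN1 and TRIB3 are in both sets, which share the siSCR vehicle libraries of both lines. The difference of PSPH lost its call in 12 of 12 fits that each left out 1 library, and that of DNAJB11 in 11 of 12. DDIT3 and PHGDH lost theirs in 4, XBP1 in 1 and the other 8 in 0. The differences in knockdown with vehicle lost their call in 10 of 12 such fits for ERN1, 9 for DDIT3, 8 for STC2, 7 for CREB3L2, 5 for DNAJB9, 4 for TRIB3 and 1 for EDEM1.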

How the results depend on the processing

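Of 1231 alternative values of 72 results on single members, 1061 kept direction and side of the threshold, 170 lost the call (106 of them among 552 values with 1 library left out) and 0 changed direction; the cause was not tested. With 1 library left out, the number of members called ranged from 0 to 6 for knockdown in LNCaP:C4-2 with vehicle (5 in the reported fit), 0 to 4 with R1881 (0), 6 to 9 for R1881 in LNCaP:C4-2 siSCR cells (8) and 1 to 3 in siMETTL3 cells (1), 0 to 0 for the interaction (0); in 22Rv1 it ranged from 1 to 3 for knockdown with vehicle (1), 1 to 1 with R1881 (1), 7 to 8 for R1881 in siSCR (8) and 5 to 7 in siMETTL3 cells (7), and 0 to 1 for the interaction (0). It ranged from 21 to 23 for the lines compared in siSCR vehicle cells (21), 10 to 12 for the line difference in R1881 response (13), 0 to 12 in knockdown with vehicle (7) and 0 to 0 with R1881 (0). METTL3 itself in LNCaP:C4-2 ranged from -0.66 to -0.55 with vehicle and from -0.65 to -0.52 with R1881, and lost its adjusted p in 3 and 5 of these fits.

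With only the 6 libraries compared, 2 members were called for knockdown in LNCaP:C4-2 with vehicle (METTL3 -0.61, adjusted p = 0.054), 1 with R1881 and 2 for R1881 in siMETTL3 cells. DESeq2 called 1 member for knockdown in LNCaP:C4-2 with R1881, and 11 with vehicle and 1 with R1881 for the line differences in knockdown. With no filter on low counts there were 2 for knockdown in LNCaP:C4-2 with R1881 and 5 for the interaction in that line, and with at least 10 counts in every library 2 for R1881 in its siMETTL3 cells. Scaling by library size only gave 5 and 2 for R1881 in siSCR and siMETTL3 cells of LNCaP:C4-2 and 5 in siSCR cells of 22Rv1; it moved the median of all genes between the lines from 0.03 to 0.18 (0.12 with DESeq2's size factors) and changed the sign of 0 called members. An adjusted p under 0.01 left 1 member for knockdown in LNCaP:C4-2 with vehicle, 6 for the line difference in R1881 response and 1 for that in knockdown with vehicle. Without the fold threshold the counts rose by construction to 16 and 7 for R1881 in siSCR and siMETTL3 cells of LNCaP:C4-2, 21 and 23 in those of 22Rv1, 3 and 15 for knockdown in 22Rv1 with vehicle and R1881, and 34 between the lines. Offsets for GC content and length gave 4 and 3 for R1881 in siSCR and siMETTL3 cells of LNCaP:C4-2, and 15 and 1 for the line differences in knockdown with vehicle and R1881.

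The replicate numbers were checked as a pairing: deviations of same-numbered libraries from their group means had a mean correlation of -0.02 in LNCaP:C4-2 and -0.01 in 22Rv1 (18 pairs each). The labels do not say whether a number marks a shared culture or day. With 3 libraries a group this check cannot exclude it, and the main fits did not treat the numbers as pairs. With the replicate block 0 of 72 member calls changed, and METTL3 in LNCaP:C4-2 with R1881 was at -0.57 (adjusted p = 0.0706). The block with GC and length offsets gave 5 and 3 members for R1881 in siSCR and siMETTL3 cells of LNCaP:C4-2, and 15 and 1 for the line differences in knockdown with vehicle and R1881. With 3 libraries a group, changes well under 1.5-fold are at the limit of what these depths and spreads resolve.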
